A study of Mus musculus with 40 samples.

Results

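Acyl-CoA thioesterases are enzymes that split the bond between coenzyme A (CoA) and a fatty acid or another acyl group. The 10 genes described here, Acot1, Acot2, Acot3, Acot4, Acot7, Acot8, Acot9, Acot11, Acot12 and Acot13, were taken by symbol from the deposited count tables, and all 10 were found among the 40594 genes that both tables hold. All 10 passed the filter on low counts, as 10 of 12942 genes tested.

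RNA sequencing counts came from the livers of 40 male mice, aged 5 months, with strain C57BL6/J on every label. The 4 groups of wild-type (WT) mice received a low-fat control diet ("control"), the same diet with pioglitazone ("Pio"), a high-fat diet ("HFD") or the high-fat diet with pioglitazone ("HFD-Pio"), and 4 groups of liver-specific PPARγ knockout (KO) mice received the same diets, with 5 mice in each of the 8 groups. Pioglitazone, a thiazolidinedione that activates the nuclear receptor PPARγ, made up 0.01% of the supplemented diets by weight, and fat supplied 60% of calories in the HFD, over 3 months of feeding. KO mice carried loxP sites in Pparg and Cre driven by the albumin promoter, which acts in hepatocytes and leaves the gene in other liver cells, whereas WT mice were C57BL6/J without loxP sites or Cre. Counts of WT mice and of KO mice were deposited in different tables, so the genotype cannot be told apart from the table, and no level was tested between genotypes. Mice are named by group and by the number in their label.

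Acyl-CoA synthetases attach CoA to fatty acids, and thioesterases undo that step, so together they set the pool of acyl-CoA in each compartment of the hepatocyte. The family holds unrelated folds: Acot1, Acot2, Acot3 and Acot4 are close relatives with an α/β-hydrolase fold that lie side by side in the genome, and the other members have a hotdog fold. In rodent liver the α/β-hydrolase members are classic targets of PPARα, the fatty acid sensor that also drives peroxisomal and mitochondrial β-oxidation.

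The 4 related genes lie on the plus strand of chromosome 12 (GRCm38, GENCODE M21 annotation), in the order Acot2 (chr12:83987861-83993873), Acot1 (chr12:84009490-84018371), Acot4 (chr12:84038379-84048601) and Acot3 (chr12:84052144-84060402). Their products go to different places: Acot1 stays in the cytosol, Acot2 enters mitochondria, and Acot3 and Acot4 enter peroxisomes. The unrelated Acot8 (chr2:164792765-164804882, minus strand) is also peroxisomal. Import into peroxisomes is directed by the last codons of the coding sequence, so the last 30 coding bases of these 5 genes are shown with the final 3 codons before the stop codon in capitals, all within the last coding exon.
Acot1: gagtgtttgcatgtgtctCCTAAAATAtaa
Acot2: ttccacaaacagttgggtAGCAAGAGTtag
Acot3: aaaaagaagacaatcccaGCAAAACTGtga
Acot4: acccacagcagagcctccTGTAGACTGtag
Acot8: aagcctcaggtgtcagagAGTAAGCTAtag
These end segments lie at chr12:84017350-84017379 (Acot1), chr12:83993051-83993080 (Acot2), chr12:84058997-84059026 (Acot3), chr12:84043767-84043796 (Acot4) and chr2:164792892-164792921 (Acot8). In the peroxisomal Acot3, Acot4 and Acot8 the last codon is CTG or CTA after AAA, AGA or AAG, a common form of the peroxisomal signal, and Acot1 and Acot2 have other last codons. The remaining members are spread over other chromosomes: Acot7 (chr4:152178134-152271855, plus strand), Acot11 (chr4:106744555-106804998, minus strand), Acot9 (chrX:155262443-155297654, plus strand), Acot12 (chr13:91741512-91786148, plus strand) and Acot13 (chr13:24817948-24831540, minus strand).

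Close relatives share sequence, and some members overlap other genes, so reads could not always be given to 1 gene. The coding sequences of Acot1 and Acot2 were 95.5% identical over aligned bases, and those of Acot1 and Acot3 were 84.0% identical. Of all 50-base windows of Acot2 exons, 27.7% also occur in another gene, mostly in Acot1, and the share was 19.2% for Acot1 and 15.2% for Acot9, whose windows are shared with its retrogene Acot10. It was 21.3% for Acot3 and 13.4% for Acot4, where the gene that shared most was an overlapping one, Gm49366 (11.0% of Acot3 windows) and the antisense gene 4732463B04Rik (10.4% of Acot4 windows). Only unambiguous reads were counted, so these genes could be undercounted to different extents, and values of Acot1 and Acot2 are uncertain. On the opposite strand, exons of Acot11 overlap Fam151a over 1263 bases, those of Acot4 and Acot3 overlap 4732463B04Rik over 615 and 312 bases, those of Acot8 overlap Snx21 over 246 bases and those of Acot12 overlap 4833422C13Rik over 149 bases. On the same strand, Gm49366 overlaps Acot3 exons over 396 bases and Acot4 exons over 33 bases. Counts of these genes are uncertain to that degree, since whether counting used strand is not given in the sources used here. Acot7 and Acot13 shared 0% of their windows.

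The promoters were searched for the PPAR response element, since RefSeq sequences of 250 bases before to 50 bases after the start were held for 9 of the 10 members in 11 entries (GRCm38.p6), with none for Acot13. A direct repeat of the half-site AGGNCA with 1 base between the copies (N is any base), on either strand, was present in 0 of the 11 entries, against 0.381% of 32851 promoters. A single AGGTCA, which can be part of such a repeat, was present on either strand in 4 of the 11 entries, against 16.3% of all promoters. These were the entries of Acot4 and Acot12 and both entries of Acot3. Both Acot3 entries hold the same match, at chr12:84052162-84052167, so that site is counted more than once. A match is a description of letters in this window, and elements elsewhere were not searched.

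Library sizes ranged from 15789401 to 49860981 counts in WT mice and from 21542958 to 28334251 in KO mice. KO Pio mouse 13 stood apart from all other libraries. Its median Spearman correlation with the other KO mice was 0.773, and 56.9% of the variance among KO mice lay on a first component that it dominated. Its summed hepatocyte markers were 35300 CPM (counts scaled to a common library size), the lowest of the 40 mice, its pancreatic acinar markers summed to 138 CPM and its clock genes to 1380 CPM. Neither was particular to it: clock genes also summed to 1380 CPM in WT HFD mouse 829, and pancreatic acinar markers to 646 CPM in KO HFD mouse 10, which also had the highest skeletal muscle markers (14.8 CPM). In WT mice the lowest correlation was 0.936, in WT control mouse 832, whose stellate cell markers were the highest of all (606 CPM). Hepatocyte markers thus summed to at least 35300 CPM in every liver. Pparg was 5.79 to 14.2 CPM in WT and 3.01 to 9.90 CPM in KO mice, which overlap. Deletion of some exons can leave the rest of a transcript, so gene totals check the knockout only in part. Results that involve mouse 13 are given with and without it.

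Levels are TMM-normalized CPM. Where genes are compared with each other, they were divided by the length in kilobases (kb) of the transcript with the longest complete coding sequence. Counts cover all exons of a gene, which are longer for some members, as in Acot11 (6056 against 2939 bases) and Acot1 (3919 against 2272 bases). The order of the lower members and the gaps between neighbours can depend on this choice. In WT control livers the family was led by Acot13 (Them2), a small thioesterase that associates with mitochondria and the phosphatidylcholine transfer protein, at 75.4 ± 32.4 CPM per kb (SD, n = 5). Acot12, a cytosolic enzyme with a preference for acetyl-CoA, followed at 29.7 ± 6.33 CPM per kb. Acot7, a cytosolic long-chain thioesterase best known from brain, reached 22.8 ± 2.56 CPM per kb. Acot8, the broad peroxisomal thioesterase, reached 14.2 ± 2.99 CPM per kb. The other 6 members were lower: Acot1 was at 3.54 ± 2.16, Acot2 at 3.03 ± 2.99, Acot11 at 2.41 ± 0.886, Acot9 at 1.92 ± 1.5, Acot4 at 1.17 ± 0.124 and Acot3 at 0.775 ± 0.29 CPM per kb. Acot11 (Them1) is known from brown fat, and Acot9 is mitochondrial. With these lengths, among neighbours in this order, the 5 mice did not overlap only between Acot7 and Acot8 and between Acot8 and Acot1.

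**Figure D1:**
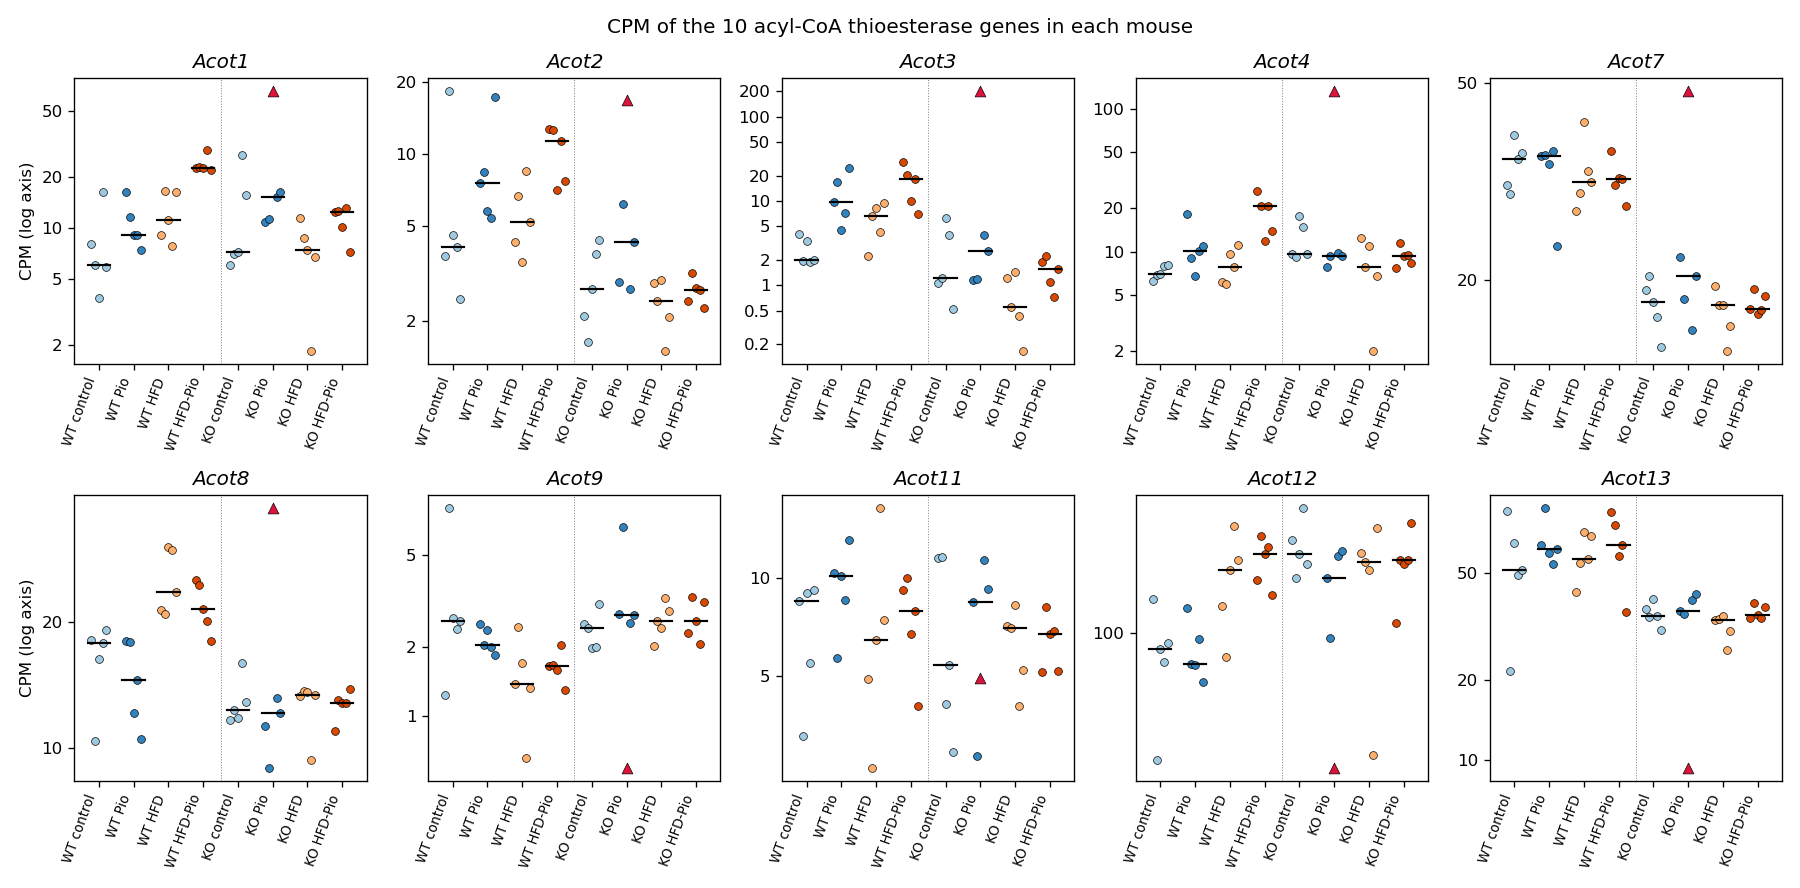
CPM (log axis) of each member in each mouse, by group, with a black bar at the group median and a red triangle for KO Pio mouse 13. The 4 chromosome 12 genes are highest by median in the WT HFD-Pio group, and mouse 13 lies above all other mice for Acot1, Acot3, Acot4, Acot7 and Acot8.

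The first question was whether Pio changed the family in WT livers on control diet. The peroxisomal Acot3 had the largest difference. It stood at 4.05, 1.94, 3.38, 1.91 and 2.01 CPM in WT control mice and at 9.70, 17.0, 4.59, 7.29 and 24.6 CPM in WT Pio mice. All 5 Pio mice were above all 5 control mice, a separation that 4.5% of genes showed in this direction. The log2 fold change was 2.26 ± 0.90 (SE), and it was not past the threshold (adjusted p = 0.163, quasi-likelihood F test of edgeR, Benjamini-Hochberg over all genes). Without KO Pio mouse 13, whose values entered the shared estimate of the spread, the log2 fold change was 2.28 ± 0.54 and Acot3 was called higher (edgeR adjusted p = 0.00432). In the fit of the 40 mice, 0 of 10 members were called, against 3.91% of genes, and 1 had an unadjusted p of at most 0.05. Without mouse 13, 1 of 10 was called, against 15.6% of genes. The exact permutation test of 5 mice against 5 gave p = 0.00794, the smallest this design can give, and 0.106 after Benjamini-Hochberg adjustment over the 80 such tests of members.

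The neighbouring Acot4, which acts on succinyl-CoA and other dicarboxylic acyl-CoA, ranged from 6.25 to 8.07 CPM in WT control and from 6.73 to 18.4 CPM in WT Pio mice, with a log2 fold change of 0.61 ± 0.52 that was not called (edgeR adjusted p = 0.595). Acot2 was dominated by a single mouse on each side: it was 18.3 CPM in WT control mouse 832 and at most 4.59 CPM in the other controls, and 17.3 CPM in WT Pio mouse 845 and at most 8.40 CPM in the others. Its fitted difference moved from 1.25 on the log2 scale without mouse 832 to 0.03 without mouse 845. Over the 10 members, the median log2 fold change was 0.34, and 7 of 10 were positive, against a median of -0.02 over all genes.

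On HFD, Pio separated 2 members. The cytosolic Acot1 stood at 9.12, 16.6, 11.1, 7.85 and 16.3 CPM in WT HFD mice and at 22.8, 23.2, 22.8, 29.0 and 22.1 CPM in WT HFD-Pio mice. Acot4 stood at 6.14, 5.88, 9.58, 7.80 and 11.1 CPM in WT HFD mice and at 26.7, 20.8, 11.8, 20.7 and 14.0 CPM in WT HFD-Pio mice. In both genes all HFD-Pio mice were above all HFD mice, as in 3.22% of genes. The log2 fold change of Acot1 was 0.98 ± 0.44 (edgeR adjusted p = 0.274) and that of Acot4 was 1.22 ± 0.52 (edgeR adjusted p = 0.247). Without mouse 13, Acot4 was called higher (1.24 ± 0.29, edgeR adjusted p = 0.00687), and Acot1 was not (1.00 ± 0.37, edgeR adjusted p = 0.0723). Thus 0 of 10 members were called with all mice, against 1.08% of genes, with 2 at an unadjusted p of at most 0.05, and 1 of 10 without mouse 13, against 11.6%.

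Acot3 was 2.25 to 9.55 CPM in WT HFD and 7.09 to 29.3 CPM in WT HFD-Pio mice, with 4 of 5 HFD-Pio mice above all HFD mice (log2 fold change 1.46 ± 0.87, edgeR adjusted p = 0.427, and 0.0562 without mouse 13). Acot2 was 3.53 to 8.51 CPM in WT HFD and 7.05 to 12.7 CPM in WT HFD-Pio mice (0.87 ± 0.44, edgeR adjusted p = 0.332). The 4 chromosome 12 genes, summed because their reads can be hard to tell apart, gave 18.4 to 33.2 CPM in WT control, 26.3 to 60.2 in WT Pio, 21.8 to 42.2 in WT HFD and 50.9 to 91.6 CPM in WT HFD-Pio mice. This sum was chosen after its values were seen. The Pio effect was not shown to differ between the diets: 0 of 10 members were called for that difference in WT mice, against 0.0773% of genes (5.25% without mouse 13), and 0 had an unadjusted p of at most 0.05. In KO mice 0 of 10 were called for it, against 0.0% of genes, with 1 at an unadjusted p of at most 0.05, Acot3 (-3.04 ± 1.36 with mouse 13 and 1.17 ± 0.86 without it).

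**Figure D2:**
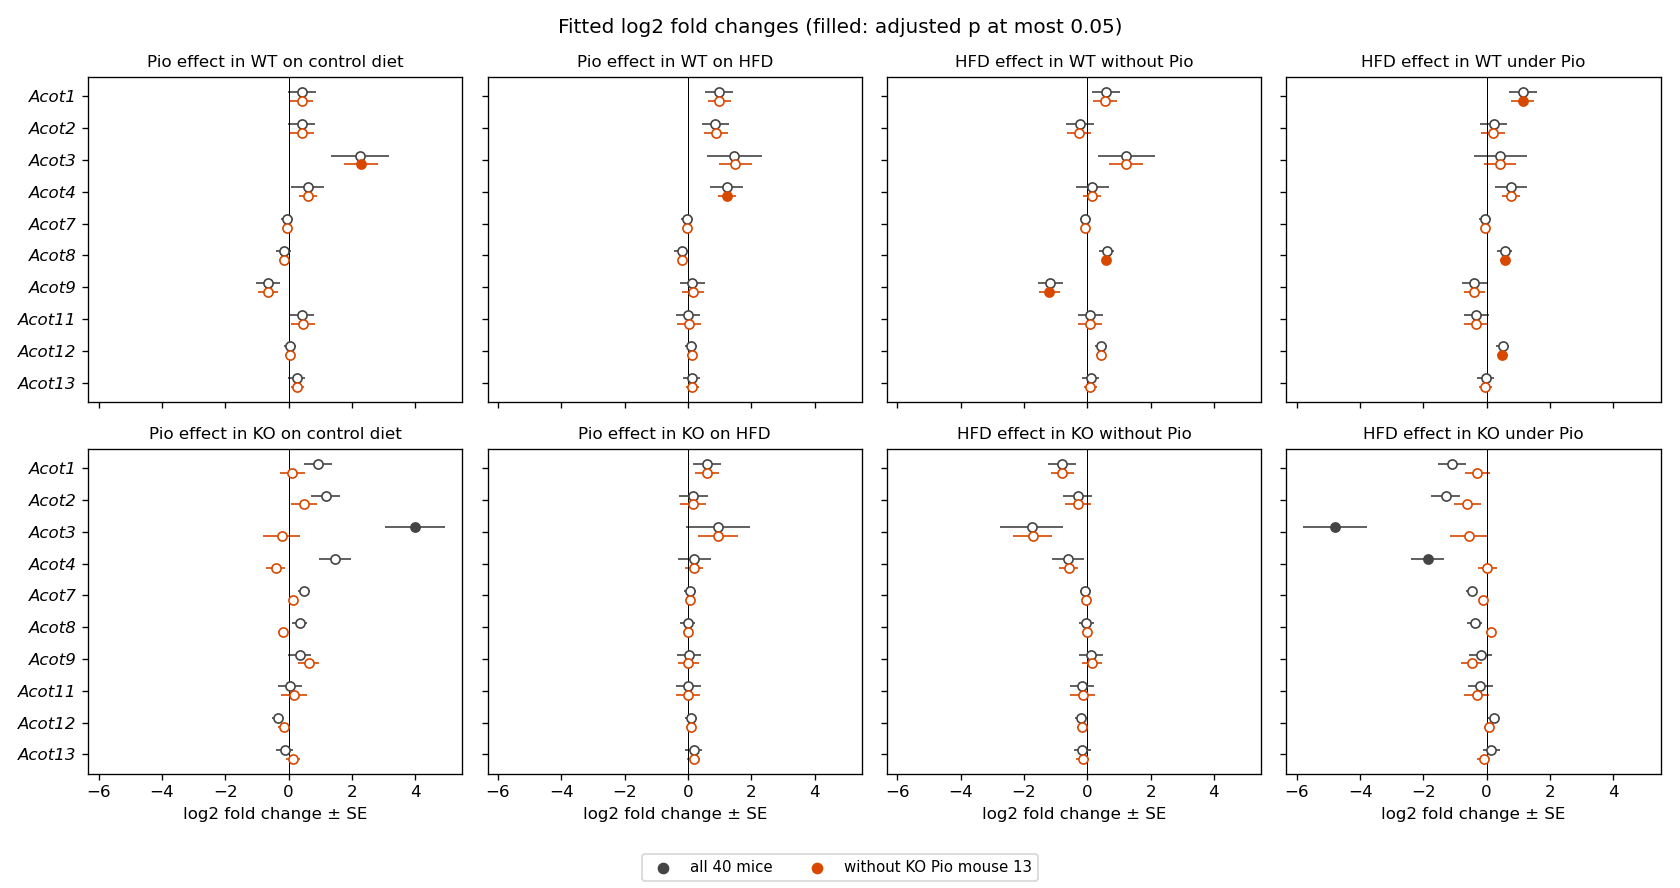
Log2 fold change ± SE of each member (rows) in the 8 comparisons of 2 groups, from the fit of all 40 mice (dark) and without KO Pio mouse 13 (orange), with filled points at an adjusted p of at most 0.05. In the WT panels the 2 fits give nearly the same fold change with shorter bars without mouse 13, while in the KO panels that include Pio on control diet Acot3 moves from 4.00 to -0.21 and from -4.79 to -0.56.

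Other measures moved with Pio in WT mice. The 8 adipocyte markers summed to 18.4 to 32 CPM in WT control and 155 to 662 CPM in WT Pio mice, and to 20.7 to 101 CPM in WT HFD and 132 to 680 CPM in WT HFD-Pio mice. Over all 40 mice, the highest values were 0.67 CPM for Adipoq, 0.164 for Lep, 2.16 for Plin1 and 4.76 for Retn. They were 39.7 CPM for Adrb3, 193 for Fabp4, 253 for Cidea and 471 for Cfd. The cell type behind the higher sums was not tested. The 13 clock genes summed to 377 to 692 CPM in WT control and 723 to 1080 CPM in WT Pio mice, which do not overlap. Of the 13 genes, 3 were called higher and 3 lower, against 3.91% of all genes (5 and 3 without mouse 13, against 15.6%). Their part in the differences of Acot3 and Acot4 was not tested. In whole liver, a change in RNA per cell and a change in the share of a cell type cannot be told apart.

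For the effect of HFD itself in WT livers without Pio, the groups separated in 1 member. The peroxisomal Acot8 stood at 18.1, 10.4, 16.3, 17.8 and 19.1 CPM in WT control mice and at 21.3, 20.8, 30, 29.5 and 23.5 CPM in WT HFD mice. All HFD mice were above all control mice, as in 1.65% of genes. The log2 fold change of 0.62 ± 0.24 was not past the threshold with all mice (edgeR adjusted p = 0.208), and Acot8 was called higher without mouse 13 (0.60 ± 0.15, edgeR adjusted p = 0.0127). Counts on 246 shared exon bases could belong to Snx21. Acot3 had a larger mean difference with HFD, 1.11 on the log2 scale against 0.627 for Acot8, but its groups overlapped, with 4 of 5 HFD mice above all controls (exact permutation p = 0.0317, and 0.231 after Benjamini-Hochberg adjustment over the 80 tests).

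Acot9, a mitochondrial member with the hotdog fold, stood at 1.23, 7.93, 2.66, 2.38 and 2.57 CPM in WT control mice and at 1.38, 2.43, 1.70, 0.658 and 1.32 CPM in WT HFD mice. The groups overlapped, and the 7.93 CPM belonged to WT control mouse 832. The log2 fold change was -1.17 ± 0.39 (edgeR adjusted p = 0.126) with all mice. Without KO Pio mouse 13 it was -1.20 ± 0.34 and called lower (edgeR adjusted p = 0.0271), whereas without WT control mouse 832 it was -0.57 (edgeR adjusted p = 0.789). With all mice 0 of 10 members were called for HFD without Pio, against 1.31% of genes, with 3 at an unadjusted p of at most 0.05. Without mouse 13, 2 of 10 were called, against 6.55%.

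Under Pio, HFD separated Acot1 and Acot12. Acot1 stood at 16.4, 11.7, 9.13, 9.04 and 7.43 CPM in WT Pio mice, all below the 22.1 to 29.0 CPM of WT HFD-Pio mice. Acot12 stood at 110, 88.5, 88.2, 97.4 and 82.5 CPM in WT Pio mice and at 123, 146, 136, 140 and 116 CPM in WT HFD-Pio mice. Such a separation, with HFD-Pio higher, occurred in 2.91% of genes. Acot8 overlapped, at 10.5 to 18.0 CPM in WT Pio and 18.0 to 25.1 CPM in WT HFD-Pio mice. The log2 fold changes were 1.15 ± 0.44 for Acot1, 0.51 ± 0.20 for Acot12 and 0.57 ± 0.24 for Acot8, with edgeR adjusted p values of 0.201, 0.202 and 0.245. Without mouse 13 all 3 were called higher, at adjusted p values of 0.0466, 0.0479 and 0.016. These were 3 of 10 members, against 8.68% of genes called in that fit, and 0 of 10 were called with all mice, against 1.22%, with 3 at an unadjusted p of at most 0.05.

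Acot12 also ranged from 60.6 to 114 CPM in WT control and from 90.8 to 152 CPM in WT HFD mice, with a log2 fold change of 0.44 ± 0.20 that was not called (edgeR adjusted p = 0.307). The hepatocyte markers summed to 75300 to 129000 CPM in WT control and 107000 to 153000 CPM in WT HFD mice, and to 81900 to 139000 CPM in WT Pio and 114000 to 122000 CPM in WT HFD-Pio mice. Their part in these differences was not tested. Acot7, Acot11 and Acot13 were called in none of the comparisons of WT groups, in the fit of all mice or without mouse 13. Acot7 held a narrow range of group means in WT mice, from 32 ± 2.92 CPM in HFD-Pio to 34.3 ± 3.85 CPM in control mice (SD, n = 5). Acot11 varied more among mice than among groups, from 2.61 CPM to 16.3 CPM within the WT HFD group alone. Acot13 ranged from 21.5 CPM, in WT control mouse 832, to 87.2 CPM, in a WT Pio mouse.

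In KO livers, every called member depended on mouse 13. Acot3 stood at 1.07, 1.22, 6.37, 3.94 and 0.523 CPM in KO control mice and at 1.15, 1.19, 199, 3.98 and 2.55 CPM in KO Pio mice. The 199 CPM were those of mouse 13, and the other 4 Pio mice lay within the range of the controls. With all mice Acot3 was called higher with Pio on control diet, at a log2 fold change of 4.00 ± 0.96 (edgeR adjusted p = 0.0158), as 1 of 10 members, against 9.01% of genes. Without mouse 13 the log2 fold change was -0.21 ± 0.59 (edgeR adjusted p = 0.971), and 0 of 10 members were called, against 0.512% of genes, with 0 at an unadjusted p of at most 0.05.

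For HFD under Pio, which compares the same KO Pio mice with KO HFD-Pio mice, Acot3 (-4.79 ± 1.00, edgeR adjusted p = 0.0238) and Acot4 (-1.87 ± 0.53, edgeR adjusted p = 0.0413) were called lower, 2 of 10 members against 4.96% of genes. Acot4 was 7.71 to 11.5 CPM in KO HFD-Pio mice and stood at 7.75, 9.27, 132, 9.78 and 9.27 CPM in KO Pio mice, with the 132 CPM in mouse 13. Without mouse 13 the log2 fold changes were -0.56 ± 0.60 and 0.02 ± 0.30, and 0 of 10 members were called, against 0.0931% of genes, with 0 at an unadjusted p of at most 0.05. In the fit of all mice, both calls were also lost when any 1 of the 5 KO HFD-Pio mice was left out (adjusted p of 0.0589 to 0.0968), and the call for Pio on control diet when KO control mouse 1 was left out (0.0507).

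The other KO comparisons did not include mouse 13, except through the shared spread. For Pio on HFD 0 of 10 members were called, against 0.0155% of genes (0.0% without mouse 13), with 0 at an unadjusted p of at most 0.05. Acot1 stood at 11.5, 8.74, 7.44, 1.85 and 6.70 CPM in KO HFD mice and at 12.4, 12.6, 10.1, 13.1 and 7.16 CPM in KO HFD-Pio mice, which overlap. For HFD without Pio 0 of 10 were called, against 0.185% of genes (0.388% without mouse 13), with 0 at an unadjusted p of at most 0.05 with all mice and 3 without mouse 13, Acot3 (-1.73 ± 0.61), Acot1 (-0.79 ± 0.37) and Acot4 (-0.59 ± 0.29). Leaving out any 1 of the 40 mice, KO HFD mouse 10 among them, also gave 0 members called in both comparisons. Acot3 was 0.523 to 6.37 CPM in KO control and 0.167 to 1.43 CPM in KO HFD mice, the lowest of any group.

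Mouse 13 itself had an unusual set of thioesterases. Against the median of the other 19 KO mice, its Acot3 was 164-fold, its Acot4 14.3-fold, its Acot2 6.15-fold, its Acot1 5.96-fold, its Acot8 2.89-fold and its Acot7 2.70-fold, each above the highest of the 19. Its Acot13 (9.34 CPM), Acot12 (58.7 CPM) and Acot9 (0.595 CPM) were below the lowest of the 19, and its Acot11 (4.91 CPM) lay inside their range. The 38 PPARα target genes, none of them a member, summed to 6860 CPM in this mouse, the lowest of the 40, and its clock genes and pancreatic acinar markers were high, as they were in the other mice named above. The part of these in its thioesterase values was not tested.

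**Figure D3:**
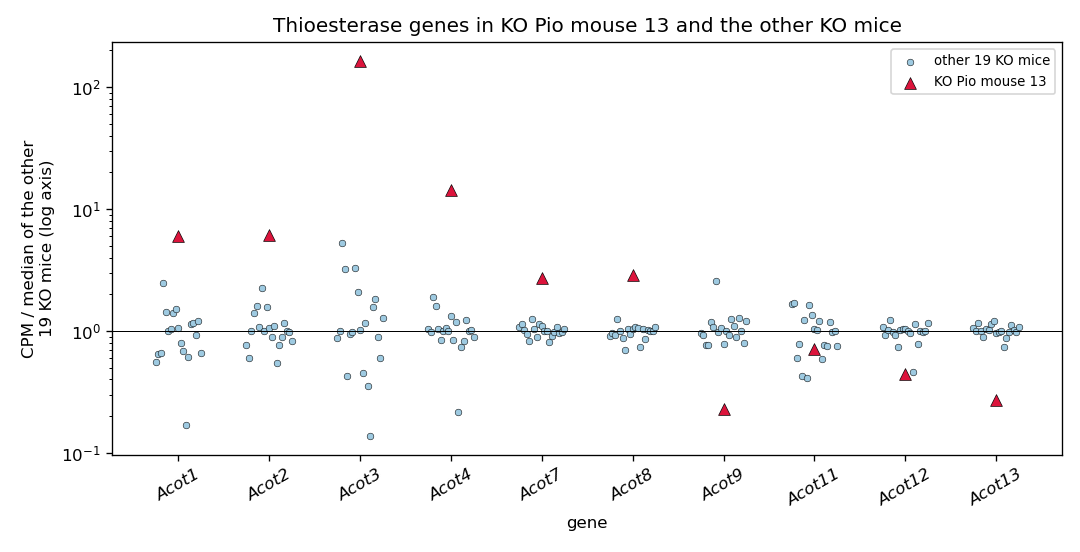
CPM of each member divided by the median of the other 19 KO mice (log axis), for KO Pio mouse 13 (red triangle) and the 19 others (blue points). Mouse 13 is above all others for 6 genes, 164-fold above their median for Acot3, and below all others for Acot9, Acot12 and Acot13.

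Whether the effects differed between genotypes was tested as a difference of effects, and 0 of 10 members were called in the 4 such tests, with all mice or without mouse 13. With all mice the background was 7.87% of genes for Pio on control diet, 0.0927% for Pio on HFD, 0.0618% for HFD without Pio and 0.0155% for HFD under Pio, and 1, 0, 4 and 5 members had an unadjusted p of at most 0.05. Without mouse 13 the background was 5.78%, 0.163%, 1.05% and 0.00775% in the same order, and 3, 1, 5 and 1 members had such a p. For Pio on control diet, Acot3 differed by -2.49 ± 0.80 on the log2 scale without mouse 13 (KO minus WT, edgeR adjusted p = 0.0572), against 1.74 ± 1.24 with it (0.368). For HFD without Pio, Acot3 differed by -2.98 ± 1.34 (edgeR adjusted p = 0.471, and 0.0622 without mouse 13). For HFD under Pio, Acot1 differed by -2.26 ± 0.63 (edgeR adjusted p = 0.122), and by -1.44 ± 0.53 without mouse 13 (0.321).

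Levels in the 2 tables are given side by side only. Acot7 was 23.5 to 41.8 CPM in WT mice and 14.4 to 22.3 CPM in KO mice other than mouse 13. Acot7 was the 1 member of 10 whose WT values lay above all of these KO values, as did 2.62% of genes. Group means of Acot12 were 90.7 to 132 CPM in WT groups and 111 to 139 CPM in KO groups, or 122 to 139 CPM in KO groups without mouse 13.

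Over the 20 WT mice some members varied together, described by Pearson's r of log2 CPM without a test, since the mice share groups and libraries. Acot3 varied with Acot4 (r = 0.754), its neighbour on chromosome 12, and Acot1 with Acot4 (r = 0.703), while Acot1 and Acot3 were less close (r = 0.577), as were Acot3 and Acot13 (r = 0.593) and Acot2 and Acot3 (r = 0.560). Acot8 varied with Acot12 (r = 0.825), which lies on another chromosome, and both varied against Acot9 (r = -0.637 and -0.786). WT control mouse 832 had the lowest Acot8 (10.4 CPM) and Acot12 (60.6 CPM) and the highest Acot9 (7.93 CPM) of the 20 mice. The r values without that mouse were not computed. In the fit of all mice Acot3 was the only member called in more than 1 comparison of 2 groups, and both calls were lost without mouse 13. Of 9272 other genes that averaged 5 CPM or more, those whose log2 CPM followed Acot3 most closely over the 20 WT mice, which exclude mouse 13, were Slc16a7, a monocarboxylate transporter (r = 0.899), Maob, a monoamine oxidase (r = 0.879), and Fmo1, a flavin monooxygenase (r = 0.870).

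**Figure D4:**
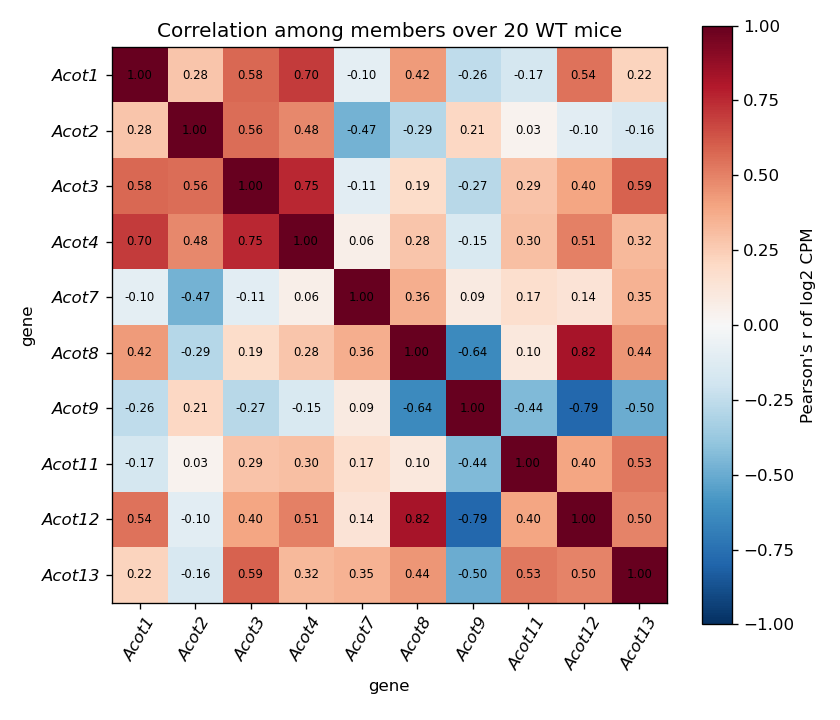
Pearson's r of log2 CPM between each pair of members over the 20 WT mice, from -1 (blue) to 1 (red). Acot8 and Acot12 vary together (0.825) and against Acot9, and Acot4 varies with Acot3 (0.754) and Acot1 (0.703). WT control mouse 832 is the extreme value of Acot8, Acot12 and Acot9 among these mice.

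Genes around the family in acyl-CoA metabolism were followed as lists. Of the 38 PPARα target genes, 7 were called higher and 1 lower with Pio on control diet in WT mice (median log2 fold change 0.49, against -0.02 over all genes). Leaving out mouse 13 raised the counts in all 4 WT comparisons of 2 groups, as it raised the share of all genes called: 37 genes of the list were then tested, with 17 called higher and 3 lower for Pio on control diet (15.6% of all genes), 14 and 1 for Pio on HFD (11.6%), 17 and 0 for HFD without Pio (6.55%) and 13 and 0 for HFD under Pio (8.68%). With all mice the shares of all genes were 3.91%, 1.08%, 1.31% and 1.22%. The largest with all mice were Vnn1, the pantetheinase vanin-1 (1.81), Acaa1b, a peroxisomal thiolase (1.60), and the hormone gene Fgf21, which was lower (-3.01). On HFD, 3 were called higher with Pio and 0 lower (median 0.40), among them Acaa1b (1.48) and Vnn1 (1.34). HFD without Pio gave 4 called higher and 0 lower (median 0.58), among them Crat, carnitine acetyltransferase (0.95), and Pex11a of peroxisome division (0.79). HFD under Pio gave 5 called higher and 0 lower (median 0.49), led by Crot, the peroxisomal carnitine octanoyltransferase (1.05), the carnitine transporter Slc22a5 (0.98) and Angptl4 (0.95).

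In KO mice the same list had 0 called higher in any comparison of 2 groups. It had 3 called lower with Pio on control diet, led by Cyp4a10, a fatty acid ω-hydroxylase (-1.55), against 9.01% of all genes. Without mouse 13 it had 0, against 0.512% of all genes. With HFD without Pio 1 was called lower, again Cyp4a10 (-2.67), against 0.185% of all genes. Without mouse 13, 2 were called lower, Cyp4a10 (-2.65) and its relative Cyp4a14 (-2.47), against 0.388% of all genes. For the difference between genotypes of the Pio effect on control diet, 11 of 38 were called lower in KO and 1 higher with all mice, against 7.87% of all genes. Without mouse 13, 15 were lower and 1 higher of 37 tested, against 5.78% of all genes. For this difference of the HFD effect without Pio, 1 was lower and 0 higher with all mice, against 0.0618% of all genes. Without mouse 13, 7 were lower and 0 higher of 37 tested, against 1.05%. For Pio on HFD and for HFD under Pio, 0 were called in either fit, against at most 0.163% of all genes.

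The acyl-CoA synthetases, which oppose the thioesterases, had 17 of 23 listed genes tested. Acsm3, a medium-chain synthetase, was called higher with Pio on control diet in WT mice (1.01), and 0 were called with Pio on HFD. HFD without Pio had 2 called higher, Acsl1 (1.08) and Slc27a2 (0.82), which activate long and very long chains, and 1 lower, the acetyl-CoA synthetase Acss2 (-1.65). Under Pio, HFD had 1 called, Acss2 (-1.78). Of all genes, 3.91% were called for Pio on control diet and 1.08% for Pio on HFD. The shares for HFD were 1.31% without Pio and 1.22% under Pio. Without mouse 13, 5 were called higher for Pio on control diet, against 15.6% of all genes. In the same fit 3 were higher for Pio on HFD, led by Slc27a1 (0.78), against 11.6%. It had 4 higher and 3 lower for HFD without Pio, against 6.55%, and 3 lower for HFD under Pio, against 8.68%. In KO mice Acss2 (1.35) and Slc27a1 (1.29) were called higher with Pio on control diet, against 9.01% of all genes. Without mouse 13 only Acsl5 (0.69) of this list was, against 0.512% of all genes. Of other thioesterases, 10 of 14 listed were tested, and 1 was called in the WT comparisons of 2 groups with all mice. Fasn, whose product carries a thioesterase domain, was lower with HFD without Pio (-1.78), against 1.31% of all genes. Without mouse 13, 2 were called higher for Pio on control diet, against 15.6% of all genes. In the same fit 3 were higher and 1 lower for Pio on HFD, led by Acot6 (1.49), against 11.6%. It had 1 lower for HFD without Pio, against 6.55%, and 1 higher and 1 lower for HFD under Pio, against 8.68%. In KO mice Acot6 (1.18), another gene of the chromosome 12 family, and Lypla2, a thioesterase of palmitoylated proteins (1.05), were called higher with Pio on control diet. The share of all genes was 9.01%. Without mouse 13, 0 of this list were called, against 0.512% of all genes.

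Of 14 genes that make, break down or carry CoA, 3 were called higher and 1 lower with Pio on control diet in WT mice. The share of all genes called was 3.91%. The listed genes called higher were the pantetheinase genes Vnn1 (1.81) and Vnn3 (0.94) and Pank1, a pantothenate kinase that starts CoA synthesis (0.76). On HFD, Vnn1 (1.34) was called with Pio, against 1.08% of all genes. For HFD itself 0 of 14 were called without Pio (1.31% of all genes) and under Pio (1.22%). Without mouse 13, 4 were called higher and 2 lower for Pio on control diet, against 15.6% of all genes. In the same fit 5 were higher and 1 lower for Pio on HFD, against 11.6%. It had 4 higher for HFD without Pio, among them Vnn1 (1.13) and Vnn3 (0.63), against 6.55%. For HFD under Pio it had 0, against 8.68%. In KO mice 0 of 14 were called in the comparisons of 2 groups, where the share of all genes was 0.0155% to 9.01%. For the genotype difference of the Pio effect on control diet, Vnn1 (-2.39) and Vnn3 (-1.33) were called lower, against 7.87% of all genes. Both were also called lower without mouse 13 (-2.12 and -1.12), against 5.78% of all genes. For the genotype difference of the HFD effect without Pio, 0 of 14 were called with all mice, against 0.0618% of all genes. Without mouse 13, Vnn1 (-1.63) and Vnn3 (-1.01) were called lower for it, against 1.05%. Unless another fit is named, the values come from all 40 mice. All values of these lists are log2 fold changes, called by edgeR's quasi-likelihood test at an adjusted p of at most 0.05 over all genes.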

How the data were processed

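Poly-A RNA of each liver was sequenced. The authors aligned reads to GRCm38 with STAR 2.0.4b and counted unambiguous reads per gene with Subread featureCounts 1.4.5, and the deposited values are these raw counts, without normalization, in 1 table per genotype. Repeated lines of a gene (598 and 574, 0 of which differed) were merged, 355 rRNA genes were removed, and 12942 genes were tested, each reaching 1 CPM in 5 or more of the 40 mice. All sample columns matched a label (0 without a match).

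The 8 group means were fitted together by edgeR 4.0.16, run in R 4.3.3, using TMM scaling and the robust quasi-likelihood F test, since the counts call for a count test, where the authors used limma with sample weights, run here as an alternative (limma 3.58.1). DESeq2 1.42.0, RLE factors, no filter, each genotype alone and each of 40 mice left out were other alternatives, and KO mice alone without mouse 13 was chosen after seeing the data. Benjamini-Hochberg adjustment was made within each comparison, with 0.05 as the highest adjusted p for a call. Log2 CPM used a prior count of 2. The fit was tested on simulated data, with changes in WT Pio mice only and no outlying library. That test does not cover the effect of mouse 13. Exact permutation tests were two-sided. Labels do not say more on how mice were housed or sampled, so mice were treated as independent. The p values of the fit set a group difference against a spread estimated over all 8 groups. Mouse 13 enters that spread unless it was left out. Mice of a group were checked for duplicates. In the closest pair the squared count differences were 14.8 times those of sampling noise (chi-square per degree of freedom over genes).

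The members and lists were chosen with earlier results of these data known. All 10 members are reported, up to 3 called genes of largest change per list and comparison are named, except some that are not reported here, and the 3 genes of most similar pattern are named for each member called in at least 2 comparisons of 2 groups. Annotation was GENCODE M21, and promoters came from RefSeq. Sequences were read with biopython 1.88, and tables and plots were made with pandas 2.3.3, matplotlib 3.10.9, scipy 1.17.1 and numpy 2.4.6 in Python 3.11.15.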

Additional observations from a re-analysis of the deposited data

Results flagged for a closer look

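In the 80 groups of 5 mice (10 genes in 8 groups), 16 values lay far from the other 4 of their group, with a gap to the nearest mouse over 0.71 of the group's range. For independent, normally distributed values this limit marks about 1 in 20 groups. CPM need not be normally distributed and the genes share libraries, so no rate is known for these values. KO Pio mouse 13 gave 7 of these values. Acot1 (65.1 CPM), Acot2 (16.9 CPM), Acot3 (199 CPM), Acot4 (132 CPM), Acot7 (48.1 CPM) and Acot8 (37.1 CPM) were high, and Acot13 (9.34 CPM) was low. WT control mouse 832 was high in Acot2 (18.3 CPM) and Acot9 (7.93 CPM). WT Pio mouse 845 was high in Acot2 (17.3 CPM) and low in Acot7 (23.5 CPM). KO HFD mouse 9 was low in Acot8 (9.37 CPM) and Acot12 (61.7 CPM), with summed hepatocyte markers of 77000 CPM and macrophage markers of 666 CPM, the highest of the 40 mice. Single high values were Acot1 in WT HFD-Pio mouse 839 (29.0 CPM), Acot8 in KO control mouse 4 (15.9 CPM) and Acot13 in WT Pio mouse 842 (87.2 CPM).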

How the results depend on the processing

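Member counts in this section stand without the share of all genes called, which can differ between fits. They do not show whether a change was particular to the family. With limma and sample weights, the number of members called was 3 for Pio in WT on control diet (Acot2, Acot3 higher, Acot8 lower), 2 for Pio in WT on HFD, 6 for HFD in WT under Pio, 0 for Pio in KO on control diet, 0 for HFD in KO under Pio and 4 for the genotype difference of the HFD effect under Pio. DESeq2 called 2 for Pio in KO on control diet and 3 for that genotype difference. With each genotype fitted alone, 1 was called for Pio in WT on each diet (Acot3, then Acot4) and 0 for Pio in KO on control diet and HFD in KO under Pio. Without a filter, 1 was called for HFD in KO under Pio. RLE factors moved none of the counts beyond 1.5 times. With KO mice alone and mouse 13 left out, 0 were called in both KO comparisons with KO Pio mice, and the log2 fold changes reversed: Acot3 (-0.22) and Acot4 (-0.42) for Pio on control diet, Acot4 (0.022) for HFD under Pio and Acot3 (1.18) for the diet difference. With limma, Acot4 (-0.33 for Pio on control diet and 0.062 for HFD under Pio) and Acot3 (0.54 for the diet difference) reversed too. Except where an alternative consists of leaving out mouse 13, the cause was not tested. Leaving out each of the 40 mice in turn gave 0 to 1 members called for Pio in WT on either diet, 0 to 2 for HFD in WT without Pio, 0 to 3 for HFD in WT under Pio, 0 to 4 for Pio in KO on control diet and for HFD in KO under Pio, 0 to 3 for the genotype difference of the HFD effect under Pio, and 0 in each of the other 7 comparisons. The log2 fold change for Pio in KO on control diet ranged from -0.21 to 4.66 for Acot3 and from -0.41 to 1.75 for Acot4, that of Acot4 for HFD in KO under Pio from -2.14 to 0.023, and that of Acot3 for the diet difference in KO from -3.70 to 1.17, each crossing 0 when mouse 13 was the one removed. In WT, counts above 0 needed the removal of mouse 13, except 1 for HFD without Pio when WT control mouse 831 was removed. The genotype difference reached 3 on removing WT Pio mouse 841 or KO Pio mouse 11, and 2 on removing KO Pio mouse 12. Pio in KO on control diet gave 4 on removing KO Pio mouse 14, 3 for numbers 11, 12 or 15, and 2 for WT control mouse 832, while HFD in KO under Pio gave 4 for numbers 11, 12 or 14. No paired analysis was possible because each mouse number occurs in 1 group only. Depth limits Acot3 in KO mice and Acot9, which had few counts.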
